A study of Mus musculus with 8 samples.

Results

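The 8 arrays of gravid mouse uterus split into 4 with high and 4 with low signal of Apoa1, the gene of the main protein of high density lipoprotein, and the transcripts that separated these arrays are described here. The arrays were chosen by the signal of a single Apoa1 probe set, with 10000 or more called Apoa1-high and less called Apoa1-low. All 8 of the 8 arrays in the series were placed. The high arrays were wild-type replicate 4 and Cox-1 KO replicates 1, 3 and 4, and the low arrays were wild-type replicates 1, 2 and 3 and Cox-1 KO replicate 2. The high array nearest to the threshold was wild-type replicate 4 at 50275 and the nearest low array was wild-type replicate 3 at 842, with no array between them. Since measured signals made the classes, each difference between high and low arrays is given as a description and carries no test.

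The series asked which uterine genes differ before labor when cyclooxygenase-1, the prostaglandin synthase encoded by Ptgs1, is missing. RNA of a single uterus was hybridized to each Affymetrix 430 2.0 array, and the authors deposited MAS5 signal, a scaled intensity in arbitrary units, for 28000 probe sets. All mice were untreated gravid females at gestational day 18, aged 6 to 16 weeks by the labels, with 4 C57BL/6 wild-type mice and 4 Cox-1 KO mice on a mixed background that the labels give as C57BL/6 x Sv129. Per the methods, fetuses, fetal membranes and placenta were taken away and pieces of each uterus were kept for sections before RNA was made. Strain background therefore differed along with the deleted gene, and the tissue was bulk uterus, in which more cells of a type and more RNA per cell cannot be told apart. The probe set that the study's additional file assigns to Ptgs1 had signals of 7048, 10610, 10756 and 10508 in wild-type replicates 1 to 4, and of 88, 122, 76 and 136 in Cox-1 KO replicates 1 to 4. The genotype labels of all 8 arrays thus matched the signal of the deleted gene, and the Apoa1 classes cut across them.

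The mouse visceral yolk sac is a fetal membrane that stays functional until birth. Its outer layer, the visceral endoderm, is an absorptive epithelium that takes up maternal protein through the receptors cubilin and megalin. It also secretes apolipoproteins, alpha-fetoprotein, transthyretin and other plasma proteins that the fetal and adult liver make as well, under transcription factors of the Hnf and Foxa families.

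The 5 marker genes had low but unequal signals on the Apoa1-low arrays and signals of 23103 or more on the Apoa1-high arrays. The brightest Apoa1 probe set had signals of 183, 481 and 505 in wild-type replicates 1 to 3 and 631 in Cox-1 KO replicate 2, against 55059 in wild-type replicate 4 and 73950, 65189 and 56615 in Cox-1 KO replicates 1, 3 and 4. The difference, fitted by least squares on the log2 scale with genotype as a covariate, was 6.98. Ttr, which encodes the thyroxine and retinol carrier transthyretin, had 301, 264, 483 and 290 on these low arrays and 37669, 55560, 47797 and 45960 on these high arrays, a log2 difference of 7.11. In both genes the 4 high arrays lay close together and far above the 4 low arrays. Apob, the scaffold of the lipoproteins that carry lipid out of endoderm and liver, had 124, 144, 242 and 325 against 23103, 45088, 28104 and 25125, a log2 difference of 6.88. Alb, serum albumin, had 811, 738, 669 and 591 against 30053, 46060, 39800 and 33370, a log2 difference of 5.70.

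Afp, alpha-fetoprotein, was the brightest of the 5 on the low arrays. Its signals were 1357, 2107, 2368 and 3292 there and 66979, 75030, 70005 and 71820 on the high arrays, a log2 difference of 4.80. All 13 probe sets of the 5 genes passed the filter on low signal, and in each of them every high array lay above every low array, with differences from 3.33 for an Afp probe set to 7.32 for a Ttr probe set. Among the low arrays, on the brightest probe sets, wild-type replicate 1 had the lowest Apoa1, Afp and Apob and Cox-1 KO replicate 2 the highest. Alb ran the other way, with its highest value in wild-type replicate 1. On the Apoa1 probe set that made the classes wild-type replicate 3, at 842, was the highest low array, above Cox-1 KO replicate 2 at 796. The order of the low arrays thus differed between markers and between probe sets.

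**Figure D1:**
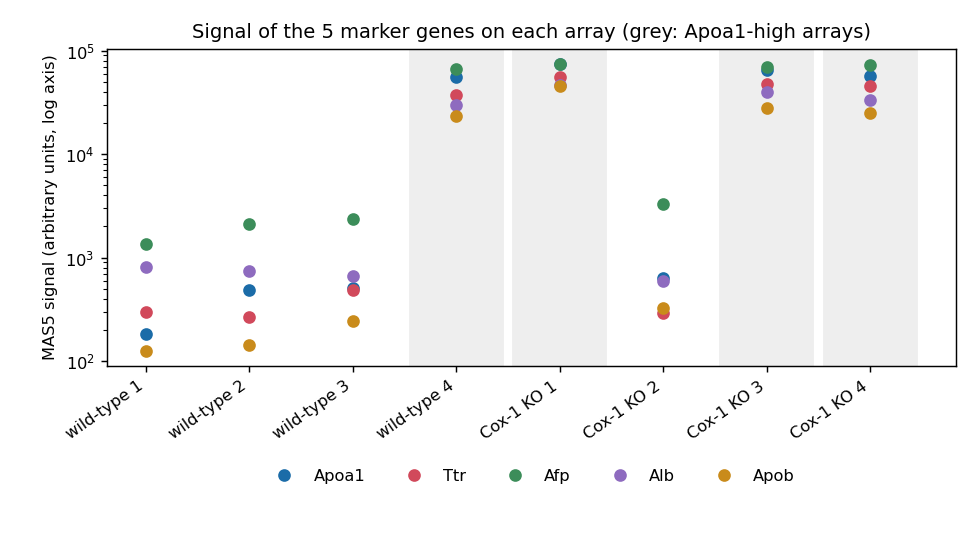
MAS5 signal, on a log axis, of the brightest probe set of Apoa1, Ttr, Afp, Alb and Apob on each array, with Apoa1-high arrays shaded. The shaded arrays lie at 23103 or more for each gene, and the other arrays at 3292 or less.

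The sequence before the annotated start is shown for 4 of the markers, because these genes differed together and such promoters are known for sites of Hnf1 and Hnf4, which drive endodermal genes. The windows are the 250 bases upstream of the RefSeq start in GRCm38.p6, all on the plus strand, at chr9:46228380-46228629 for Apoa1, chr12:7977427-7977676 for Apob, chr5:90490464-90490713 for Afp and chr5:90460620-90460869 for Alb. They are written 5′ to 3′, and capitals mark matches on either strand to TTAATNATT for Hnf1, CAAAGTC for Hnf4, AGATAA for Gata factors or TATAAA for a TATA box.
Apoa1: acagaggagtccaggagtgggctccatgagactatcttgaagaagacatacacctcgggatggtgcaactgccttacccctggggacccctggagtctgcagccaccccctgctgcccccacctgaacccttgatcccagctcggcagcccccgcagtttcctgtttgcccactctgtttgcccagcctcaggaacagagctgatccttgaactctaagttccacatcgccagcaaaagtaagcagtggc
Apob: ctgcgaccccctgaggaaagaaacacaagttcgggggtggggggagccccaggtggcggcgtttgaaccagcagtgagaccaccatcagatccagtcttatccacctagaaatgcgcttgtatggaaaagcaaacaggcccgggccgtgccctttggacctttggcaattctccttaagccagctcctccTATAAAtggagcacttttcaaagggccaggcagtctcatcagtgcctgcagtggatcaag
Afp: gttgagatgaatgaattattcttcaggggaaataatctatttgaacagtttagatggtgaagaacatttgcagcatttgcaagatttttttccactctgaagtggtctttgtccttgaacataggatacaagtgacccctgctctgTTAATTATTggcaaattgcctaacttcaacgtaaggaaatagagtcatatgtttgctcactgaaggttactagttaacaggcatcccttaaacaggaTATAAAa
Alb: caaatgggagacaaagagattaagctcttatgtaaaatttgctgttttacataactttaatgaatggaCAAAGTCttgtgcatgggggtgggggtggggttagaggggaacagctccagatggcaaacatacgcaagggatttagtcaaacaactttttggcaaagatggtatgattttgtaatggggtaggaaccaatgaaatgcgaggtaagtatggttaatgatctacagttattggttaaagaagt
The Afp window held the Hnf1 letters, starting 104 bases before the start, and the Alb window the Hnf4 letters, starting 182 bases before it. The TATA letters stood 60 bases before the start in Apob and 7 bases before it in Afp. The Apoa1 window held none of the 4 motifs. In any of these windows a motif without a match says only that those exact letters are not in it. Cubn, the gene of cubilin, held the Hnf1 letters 187 bases before its start.

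Of the 208 genes higher on the high arrays by the rule given next, 171 had a window in the same RefSeq table. The Hnf1 letters were found in 9 of these (5.26%), against 82 of the 10197 measured genes with a window (0.804%) and 1.47% of all 27025 windows. The Hnf4 letters were in 18 (10.5%), against 3.42% of the measured genes and 3.80% of all windows. The Gata letters were in 25 (14.6%), against 6.14% and 10.3%, and the TATA letters in 29 (17.0%), against 7.05% of the measured genes and 3504 of all 27025 windows. Of the 171 genes in that source, 21 (12.3%) lay on the X chromosome, against 362 of the 10197 measured genes (3.55%). These shares describe the set, whose genes were selected by their signal, and were not tested.

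Of the 26444 probe sets that reached 100 signal units in 4 arrays or more, 311 (1.18%) were higher by at least 1 on the log2 scale with every high array above every low array. The opposite held for 8 (0.0303%). Without a minimum size, high arrays lay wholly above low arrays for 1087 probe sets (4.11%) and wholly below for 1152 (4.36%), with median log2 differences of 0.53 and -0.23, while the median over all probe sets was -0.03. The contrast was therefore lopsided in size and not in number. The 311 probe sets represent 225 named genes and include 31 probe sets with no single gene name. A total of 66 differed by 4 or more on the log2 scale, 96 by 2 to 4, and 149 by less than 2. With 1 probe set per gene, the one of highest mean signal, 208 of 12662 genes (1.64%) were higher by the same rule and 4 were lower. Of the 208 genes, 42 had several measured probe sets, and all of them were higher by the rule in 31.

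Low signals set how exactly a difference is known. For 69 of the 311 probe sets all 4 low arrays had a signal under 100, where MAS5 values have little order, so the fitted differences of these are uncertain in size. These 69, among them those of Hnf4a and Foxa3, passed the filter only because all 4 high arrays reached 100. Their place in the counts given here was therefore set by the class itself. Fgb, fibrinogen beta chain, had the largest fitted difference of any gene. Its signals were 66, 65, 11 and 54 on wild-type replicates 1 to 3 and Cox-1 KO replicate 2, against 13601, 30769, 17777 and 8630 on wild-type replicate 4 and Cox-1 KO replicates 1, 3 and 4. The log2 difference was 8.42 as measured and 7.24 with signals under 100 set to 100. For Clec2h, a C-type lectin gene with signals of 3 to 37 on the low arrays and 854 to 1627 on the high arrays, it went from 7.46 to 3.44. For Cdhr2, a cadherin of the microvilli of absorptive epithelia, it went from 6.69 to 3.88. Ttr, Apoa1 and Apob were not altered by this floor. Among the genes named below it brought Agt from 6.06 to 3.68, Plg from 4.18 to 2.09, Slc2a2 from 4.03 to 1.25 and Serpinf2 from 2.82 to 1.10. It brought Foxa3, Hamp, Nr1h4, Peg10 and C8g under 1, to 0.25, 0.65, 0.73, 0.95 and 0.97.

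Genes for apolipoproteins and lipoprotein assembly, which include Apoa1 and Apob, showed the largest median difference of the gene groups beyond the markers. Of 14 measured members 10 were higher by the rule, against 1.64% of all genes, and the median log2 difference was 3.68 against -0.03 over all genes. High arrays lay wholly above low arrays for 12 of the 14, against 5.14% of all genes. Apoa4, a component of newly made lipoprotein particles, had signals of 154, 227, 234 and 368 on the low arrays, in the order used above, and 17386, 31859, 25944 and 19995 on the high arrays. Apoa2, Apom, Apoc1 and Apoc2, further protein components of lipoproteins, differed by 6.09, 6.43, 5.24 and 4.82 on the log2 scale. Mttp, which loads lipid onto apolipoprotein B, had 123 to 189 on the low arrays and 746 to 1385 on the high arrays, a log2 difference of 2.54. Apoc3 and Apoh differed by 2.29 and 1.71. Apoe, chosen after its values were seen, was bright on all arrays, at 16619 to 19326 on the low arrays and 19402 to 25570 on the high arrays.

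Secreted plasma proteins, with a median log2 difference of 2.92, held the most genes that were higher by the rule. These were 21 of 32 measured members, against 1.64% of all genes. The fibrinogen chains that form the clot were all among them. Fgg had signals of 9, 51, 114 and 88 on the low arrays and 7724, 17845, 12007 and 7602 on the high arrays, and Fga had 100, 117, 106 and 172 against 7432, 16107, 9758 and 5685. The clotting protease F2, prothrombin, differed by 4.82 and Plg, plasminogen, by 4.18 on the log2 scale. Protease inhibitors followed, with Serpina1b at 6.61 and Serpina1c at 6.03, both forms of alpha-1-antitrypsin that share much sequence and may share probes, Serpind1 at 3.81, Serpinf2 at 2.82 and Serpinc1, antithrombin, at 1.47. Agt, the precursor of angiotensin, had 12 to 22 on the low arrays and 969 to 2689 on the high arrays, a log2 difference of 6.06. Rbp4, the retinol carrier that binds transthyretin, was bright on all 8 arrays, at 26827 to 34145 on the low arrays and 32401 to 39535 on the high arrays, and these ranges overlapped. The difference was negative for 6 of the 32 members, with the largest, picked after the values were seen, at -0.45 for Cp and -0.30 for Hp.

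Kng1, the kininogen gene, was already at 916 to 1441 on the low arrays and was at 6633 to 13438 on the high arrays, a log2 difference of 2.68. Spp2, a secreted bone and liver phosphoprotein, was at 74 to 123 and at 6717 to 14808. Igfbp1, which binds insulin-like growth factors, had 22, 28, 10 and 20 against 532, 3066, 1479 and 1698, so that wild-type replicate 4 had less of it than the other high arrays. Complement and clotting genes outside the listed group, picked after their values were seen, were also higher by the rule. F11 differed by 4.53, C8g by 2.91, Cfi by 1.53, C6 by 1.27 and Proc by 1.20 on the log2 scale.

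**Figure D2:**
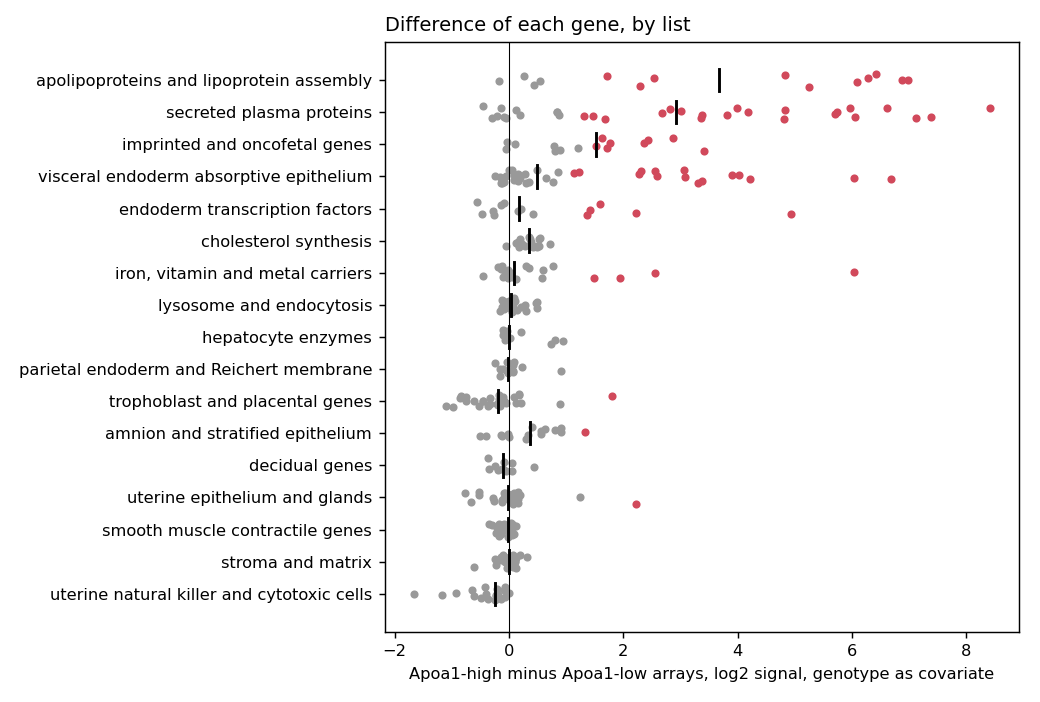
Log2 difference between Apoa1-high and Apoa1-low arrays, with genotype as a covariate, of each measured gene in 17 groups, with a bar at the group's median and genes higher or lower by the rule in red. The medians run from 3.68 for apolipoproteins to -0.25 for natural killer cell genes, and smooth muscle and matrix genes crowd around 0.

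The absorptive genes of visceral endoderm were higher in part. Of 37 measured members 15 were higher by the rule, against 1.64% of all genes. High arrays lay wholly above low arrays for 21, against 5.14% of all genes, and the median log2 difference was 0.50. Cubn, cubilin, had signals of 86, 29, 131 and 159 on the low arrays and 5883, 12360, 7441 and 5642 on the high arrays. Its partner receptor Lrp2, megalin, had 108, 92, 119 and 128 against 1876, 3727, 2048 and 1953, and Amn, amnionless, which anchors cubilin in the membrane, had 351, 324, 277 and 414 against 1840, 2839, 2660 and 1991. The high arrays exceeded all low arrays in each of the 3, with log2 differences of 6.04, 4.21 and 2.56. Dab2, the endocytic adaptor that works with both receptors and is present in many cells, was at 6329 to 8389 and at 10843 to 15820, a log2 difference of 0.65.

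Transporters and enzymes of the brush border were divided. Slc39a4, Slc39a8, Slc34a2, Slc40a1 and Slc16a1, which carry metals, phosphate, iron and lactate, and the peptidases Dpp4 and Anpep, all named after their values were seen, had log2 differences of -0.16 to 0.36 and did not separate the classes. Other carriers were higher by the rule. The amino acid transporter subunits Slc7a9 and Slc3a1, which pair with each other, differed by 3.89 and 3.30, the glucose carrier Slc2a2 by 4.03, the neutral amino acid carrier Slc6a19 by 1.23 and the orphan carrier Slc23a3 by 3.09 on the log2 scale. Vil1, the villin of microvilli, was at 29 to 97 on the low arrays and 193 to 587 on the high arrays, and Pdzk1, a scaffold for such transporters, was at 96 to 286 and 573 to 1348. Spink1, a trypsin inhibitor, had 71, 103, 62 and 93 against 6922, 17559, 10377 and 7280, a log2 difference of 6.69. Cldn2, a tight junction protein, differed by 3.37, the mucin Muc13 by 3.06 and Rhox5, a homeobox gene of extraembryonic tissue, by 2.58. The remaining iron and vitamin carriers included Rbp2, cellular retinol-binding protein, at 1.94 and Hamp, the iron hormone hepcidin, at 1.48. With Cubn and Amn, 4 of 20 measured carriers were higher by the rule, against 1.64% of all genes.

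Transcription factors of endoderm were dim but in part followed the classes. Of 14 measured factors 5 were higher by the rule, against 1.64% of all genes, and the median log2 difference of the factors was 0.18. Hnf4a, a nuclear receptor that drives many apolipoprotein genes, had signals of 14, 18, 33 and 31 on the low arrays and 634, 1710, 628 and 758 on the high arrays, a log2 difference of 4.94 that was 2.94 with signals under 100 set to 100. Foxa2, which uterine glands also express, was at 76 to 116 on the low arrays and 255 to 717 on the high arrays. Foxa3 was at 37 to 61 and at 100 to 221, Creb3l3, an activator of lipid genes, at 217 to 264 and at 622 to 1119, and the bile acid receptor Nr1h4 at 17 to 105 and at 130 to 281.

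The few measured enzymes typical of hepatocytes did not, as a group, share the pattern of the plasma proteins. Of 30 listed 13 had a probe set here and 10 passed the filter. Cps1, Otc, Tat and Mat1a, chosen to define the group, were not among these. None of 10 measured enzymes was higher by the rule, and the median log2 difference was -0.01. The difference was positive for 5 and negative for 5, and only Ttc36, at 0.81, had high arrays wholly above low arrays. Their summed signal was 22331 to 28994 on the low arrays and 23192 to 29975 on the high arrays. Cyp2e1, a liver cytochrome, had signals of 1858, 189, 669 and 624 on the low arrays and 990, 556, 3059 and 1793 on the high arrays, which overlapped. Genes of parietal endoderm, the other endodermal layer around the conceptus, gave 0 of 14 by the rule and a median of -0.02. Among the genes chosen to define that group, Lama1 had 218, 139, 134 and 107 on the low arrays and 165, 489, 263 and 391 on the high arrays. Its log2 difference was 0.92, with overlapping ranges, while the other defining genes, Thbd and Pth1r, differed by -0.15 and -0.10.

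Imprinted and oncofetal genes are expressed from a single parental allele or mainly before birth. They were higher as a group, with a median log2 difference of 1.53. Of 15 measured members 8 were higher by the rule, against 1.64% of all genes. Igf2, the fetal growth factor, had signals of 1511, 3446, 3750 and 3560 on the low arrays and 12895, 26298, 19855 and 18903 on the high arrays, a log2 difference of 2.43. Gpc3, a glypican that restrains growth, had 573, 462, 436 and 517 against 3143, 5451, 4303 and 3401. Cdkn1c, an inhibitor of the cell cycle, was at 1576 to 2843 and at 6072 to 14198, and Phlda2, a growth repressor of extraembryonic tissue, at 75 to 145 and at 445 to 833. Peg3 and Mest differed by 1.77 and 1.72 on the log2 scale.

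Dlk1 and the noncoding RNA gene Meg3, neighbours in an imprinted cluster, differed by 3.42 and 1.53. Dlk1 had 183, 152, 89 and 146 on the low arrays and 787, 2813, 1897 and 4392 on the high arrays, where the highest value was in Cox-1 KO replicate 4. Other noncoding RNA genes of the cluster, Rian and Mirg, picked after their values were seen, differed by 1.95 and 2.22, and every high array exceeded every low array in both. The imprinted genes Nnat and Plagl1, picked in the same way, differed by 3.85 and 0.79. Hmga2, a fetal chromatin protein, was at 628 to 754 on the low arrays and 543 to 807 on the high arrays and did not separate them.

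Some of the higher genes lie side by side in GRCm38.p6. Among the 201 of the 208 genes placed as protein-coding there, 20 stood next to another of them, in 8 groups. No such count for other genes is given here, so whether this is more than usual was not tested. The groups of 3 were Fgg, Fga and Fgb, then Alb, Afp and Afm, then Apoa1, Apoc3 and Apoa4, and then Mcoln3, Mcoln2 and Lpar3. Afm, a vitamin E carrier of the albumin family picked for its place, was at 50 to 85 on the low arrays and 270 to 537 on the high arrays. On the X chromosome Bex2, a small adaptor protein of neurons and embryos, had 146, 146, 110 and 74 against 3245, 6003, 4102 and 2642. Its family members Bex4 and Bex1, and the tumor antigen gene Trap1a, all chosen after their values were seen, differed by 4.26, 1.58 and 2.01 on the log2 scale.

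Cholesterol synthesis showed a small and even difference. No member of 18 reached 1 on the log2 scale, but high arrays lay wholly above low arrays for 10 of the 18, the median log2 difference was 0.36, and the summed signal was 47691 to 52523 on the low arrays and 61305 to 68503 on the high arrays. Hmgcs1, which starts the pathway, had signals of 8504, 8527, 9543 and 8530 against 11633, 13909, 11272 and 13339. Sqle, which makes squalene epoxide, was at 3421 to 3686 and at 4401 to 5490. Fdft1, squalene synthase, chosen after its values were seen, had the largest difference of the group, at 0.72 on the log2 scale. Of 29 lysosome and endocytosis genes none was higher by the rule and 6 had high arrays wholly above low arrays, against 5.14% of all genes, among them the protease Lgmn, chosen in the same way, at 0.50.

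Few lower transcripts reached the size threshold. The 4 genes lower by the rule were dim. Acod1, which makes itaconate and is known as a progesterone-responsive gene of uterine epithelium, had 216, 291, 351 and 516 on the low arrays and 144, 215, 48 and 28 on the high arrays, a log2 difference of -1.96. P2ry10, a lymphocyte receptor, had 106 to 159 and 36 to 104, with a log2 difference of -1.31. Bend6 and 1700029J07Rik differed by -1.20 and -1.33. With signals under 100 set to 100 only 2 probe sets were lower by the rule.

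High arrays lay wholly below low arrays for 589 genes (4.65%), of which 26 differed by 0.5 or more on the log2 scale and 459 had a mean signal of 1000 or more. Among genes of that brightness, picked by size after the values were seen, the largest difference was that of Pcp4, a calmodulin-binding protein, with 16506, 9035, 7890 and 8560 on the low arrays and 5435, 5074, 7221 and 4402 on the high arrays, or -0.81. Nmb, the smooth muscle peptide neuromedin B, had 2025, 1521, 1118 and 1249 against 797, 714, 1054 and 759, or -0.76. Il1f6, a cytokine of the interleukin-1 family, and Tnxb, a matrix tenascin, differed by -0.74 and -0.61. Wild-type replicate 1 held the highest value of Pcp4 and Nmb and the lowest of Il1f6 among the low arrays.

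Differences in uterine muscle and connective tissue were small. None of 26 contractile genes met the rule and their median log2 difference was -0.01, with 7 of 26 wholly below, against 4.65% of all genes, and none wholly above. Acta2, smooth muscle actin, was at 59991 to 69174 on the low arrays and 67758 to 72540 on the high arrays, and Myh11, smooth muscle myosin, at 35455 to 39520 and at 33216 to 41044. The 7 genes that were wholly lower differed by small amounts, of which the largest was -0.34 for Kcnma1, the potassium channel that quiets the muscle, followed by -0.23 for Synpo2 and -0.20 for Pgm5, parts of the contractile anchor that were picked with it after their values were seen. The 33 stroma and matrix genes had a median of -0.00093, with 4 wholly below, namely Tnxb, Spon1, Pdgfra and Dpt at -0.61, -0.25, -0.23 and -0.14, and Col3a1, a fibrillar collagen, was at 65612 to 69485 and at 67001 to 70414. Of 14 labor-associated genes 3 were wholly lower and none met the rule, and the oxytocin receptor Oxtr was at 914 to 1350 and at 878 to 1306.

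Markers of other tissues that border the uterus moved with single arrays more than with the classes. Trophoblast and placental genes gave 1 of 32 by the rule, Peg10, with a median log2 difference of -0.20 and a summed signal of 53822 to 123061 on the low arrays and 79548 to 99048 on the high arrays. Tpbpa, which marks spongiotrophoblast, had 5604, 15962, 18147 and 15619 on the low arrays and 13103, 17387, 16819 and 13871 on the high arrays, so that wild-type replicate 1 was the lowest array. Keratinized epithelium, which amnion and vagina share, gave 1 of 16 by the rule, with a median of 0.37. Krt14, a basal keratin, had 23, 24, 333 and 360 against 130, 599, 175 and 1620 and did not separate the classes. Krt6a, the member that met the rule, had 108, 118, 377 and 448 against 483, 1617, 966 and 618.

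Decidual genes gave 0 of 11, and Prl8a2, a decidual prolactin, was at 15065 to 38058 and at 20769 to 43884. Erythroid genes gave 1 of 14, Alas2, which starts heme synthesis in red cells, with 344, 555, 982 and 683 against 1125, 1240, 1188 and 2546. Adipocyte genes gave 1 of 7, Cidec of the lipid droplet, and their summed signal was 14681 to 35240 and 29120 to 53600. Of 19 natural killer and cytotoxic cell genes none met the rule, and the median was -0.25. A negative difference was found for 18 of them, against 7207 of all 12662 genes. Other groups were uneven too, with 25 of 32 trophoblast genes negative and all 7 adipocyte genes positive. The mean of this group was lowest in wild-type replicate 4, at -0.63 on the log2 scale relative to its mean over the 8 arrays, while the Cox-1 KO high arrays were at -0.20, 0.15 and 0.28. The part of these cell types in the differences described above was not tested. Among the remaining groups, Fos was the only early response gene of 19 to meet the rule, Foxa2 the only uterine epithelial gene of 29 and Hsd3b1 the only ovarian gene of 6. None met it among 18 endothelial genes, 24 macrophage genes, 8 immunoglobulin and plasma cell genes, 26 proliferation genes, 16 genes of fatty acid oxidation, 19 chaperones of the endoplasmic reticulum, 17 ribosomal protein genes, 14 steroid receptor and Hox genes and 9 candidate genes that the study itself had picked.

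**Figure D3:**
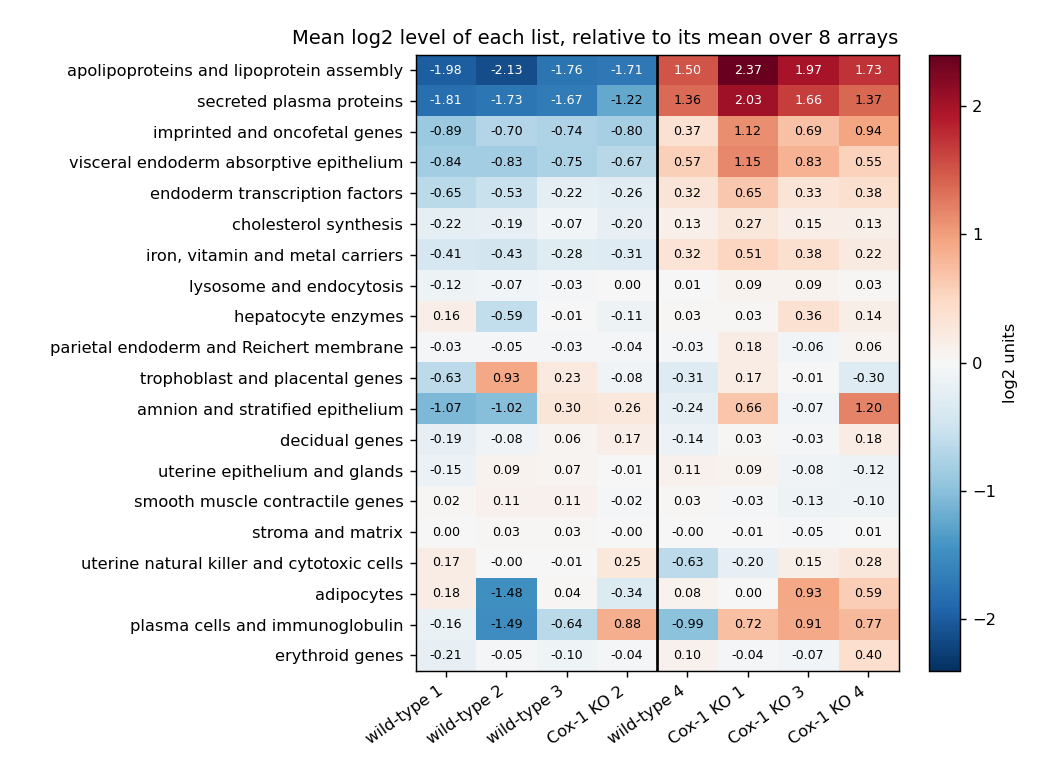
Mean log2 level of 20 gene groups on each array, relative to the group's mean over all 8 arrays, with low arrays left of the line and high arrays right of it. The top rows change sign at the line, with apolipoproteins at -1.71 or less on the low arrays and 1.73 or more on the Cox-1 KO high arrays, while trophoblast, keratin and immunoglobulin genes vary between arrays on both sides.

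Most measures of array quality overlapped between the classes, while the share of probe sets with a signal of at least 100 did not, at 92.4% to 93.1% on the low arrays and 93.2% or more on the high arrays. Its part in the differences was not tested. The ratio of 3′ to 5′ signal, which rises with RNA degradation, was 1.24 to 1.30 for Actb on the low arrays and 1.27 to 1.34 on the high arrays, and 0.732 to 0.756 and 0.738 to 0.789 for Gapdh. The median signal was 731 to 757 and 732.5 to 742. Arrays of the same class correlated at 0.976 to 0.982 over the kept probe sets, and arrays of different classes at 0.944 to 0.966, whichever genotype they had.

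The high-minus-low differences could be computed apart in each genotype, from arrays that are not shared. In wild-type mice a single high array, replicate 4, was set against 3 low arrays, and in Cox-1 KO mice 3 high arrays against a single low array, replicate 2. Differences of at least 1 on the log2 scale were found for 440 probe sets in wild-type mice and 550 in Cox-1 KO mice, of which 276 were shared, or 62.7% of the first and 50.2% of the second. The corresponding shares of all probe sets were 2.08% in Cox-1 KO and 1.66% in wild-type mice. Differences of -1 or less were found for 185 and 114, with 9 shared, or 4.86% and 7.89%, against 0.431% and 0.700% of all probe sets. The median Cox-1 KO difference of the 440 probe sets was 1.51, and that of the 185 lower ones -0.09. Across all 26444 probe sets, which are not independent of each other, both differences correlated at 0.605, and at 0.337 over the 26348 with a wild-type difference under 3. A transcript high in wild-type replicate 4 was thus mostly high in the Cox-1 KO high arrays. One that was low there mostly was not low in them, though the shared part still exceeded the share of all probe sets. The mean signal had a median of 147 for the 185 and 253 for the 440, against 819 over all probe sets. Signals made the classes and each genotype had a class with a single array, so these overlaps are a description and carry no test.

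**Figure D4:**
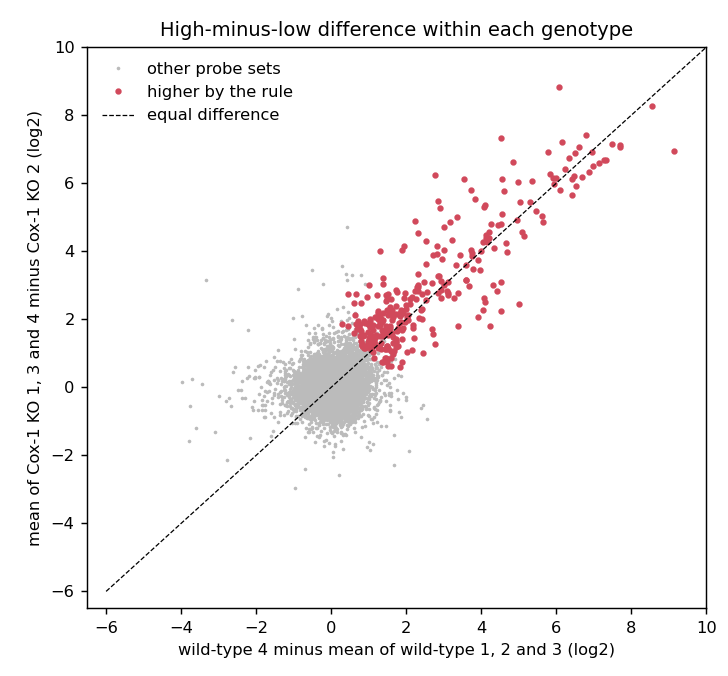
Log2 difference of every kept probe set between high and low arrays within wild-type mice (horizontal) and within Cox-1 KO mice (vertical), with the 311 probe sets higher by the rule in red and a dashed line of equal difference. The red points follow the line, and there is no matching arm of lower probe sets.

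The 4 high arrays were not equal among themselves. Over the 311 probe sets Cox-1 KO replicate 1 was the highest of the 4 in 265 and stood 0.52 above their mean on the log2 scale at the median. Cox-1 KO replicate 3 stood at 0.07, Cox-1 KO replicate 4 at -0.22 and wild-type replicate 4 at -0.32, and the last was the lowest in 165 and Cox-1 KO replicate 4 in 114. The spread shrank in the brightest probe sets. For the 17 with a mean signal of 20000 or more on the high arrays the highest array exceeded the lowest by a median of 0.58 on the log2 scale, against 1.14 for the 66 between 2000 and 20000 and 1.01 for the 228 below. Afp was at 66979 to 75030 across the 4, beside 59991 to 72540 for Acta2 over all 8 arrays, and whether the top of the measuring range narrows the spread of such probe sets was not tested. Among the low arrays the medians lay between -0.08 and 0.09 around their mean.

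Some genes left this order. Hsd3b1, a steroid-synthesis enzyme, had 6242 in wild-type replicate 4 and 12167, 8448 and 1768 in Cox-1 KO replicates 1, 3 and 4, and Slc23a3 had 918, 2533, 1487 and 370, so that replicate 4 was the lowest in both. Tph1, which makes serotonin and was picked for this after its values were seen, had 1516, 4164, 2151 and 426. Dlk1, Mest and Alas2 were instead highest in Cox-1 KO replicate 4, and so was Ly6g6c, picked in the same way, at 1010 against 151 to 237 on the other high arrays. Fos, an early response gene, was at 1781 to 4720 on the low arrays and 5031 to 7441 on the high arrays, and wild-type replicate 4 was the highest.

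The comparison that the labels define, Cox-1 KO minus wild-type, was tested with limma over all 26444 probe sets, and it asks whether genes of the Apoa1 classes also pass as genotype differences. Only 3 probe sets (0.0113%) had a Benjamini-Hochberg adjusted p under 0.05, namely that of Ptgs1, a probe set with no gene name and Mzb1, a chaperone of plasma cells. None of the 311 class probe sets was among them, and their lowest adjusted p by limma was 0.422. Each of the 311 was chosen for high arrays above low arrays, and each genotype holds arrays of both classes. That choice widens the spread within each genotype, so this result cannot decide whether these genes differ by genotype. For the brightest Apoa1 probe set the log2 difference between genotypes was 4.03 ± 1.84 (SE, 4 arrays a genotype, limma adjusted p = 0.569). On it all 4 Cox-1 KO arrays lay above wild-type replicates 1 to 3, and 3 of them above wild-type replicate 4. Not every Apoa1 probe set shared this order. On the one that made the classes Cox-1 KO replicate 2, at 796, lay below wild-type replicate 3, at 842. On another, Cox-1 KO replicate 4, at 47334, lay below wild-type replicate 4, at 48415. At an unadjusted limma p under 0.05, 129 of the 311 passed (41.5%), against 2330 of all probe sets (8.81%). A positive difference was found for 307 of the 311 (98.7%), against 42.5% of all probe sets. More Cox-1 KO than wild-type arrays were high arrays, so the choice of the 311 favors that sign. At the thresholds of the methods, a ratio of 1.5 and an unadjusted p of 0.05 in their t-test, 4 of the 311 passed (1.29%), all higher in Cox-1 KO, against 228 of all probe sets (0.862%), and after Benjamini-Hochberg adjustment of that test none of the 311 did. These probe sets follow the same division of the arrays, so their counts are not counts of independent results.

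Class and genotype were unequally mixed, with 3 high arrays of 4 in Cox-1 KO mice and 1 of 4 in wild-type mice. The median genotype difference of the 311 probe sets was 1.29 on the log2 scale, with a median SE of 0.650, against -0.03 and 0.127 over all probe sets. With the Apoa1 class as a covariate the median of the 311 was 0.27. The class was set by the same signals that chose these probe sets, so a smaller estimate and SE with it follow from the choice and support nothing. Leaving out wild-type replicate 4 brought the unadjusted count to 254 and the lowest adjusted p by limma to 0.0966, and leaving out Cox-1 KO replicate 2 brought them to 288 and 0.0676.

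Leaving out wild-type replicate 1 raised the count of 3 to 25, and leaving out either replicate 2 or replicate 4 of the Cox-1 KO mice raised it to 9, in no case with a class probe set among them. By group, no member of the apolipoproteins, plasma proteins, absorptive genes, cholesterol synthesis or imprinted genes passed the adjusted threshold. Their median log2 genotype differences were 2.20, 2.03, 0.52, 0.22 and 1.01.

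**Figure D5:**
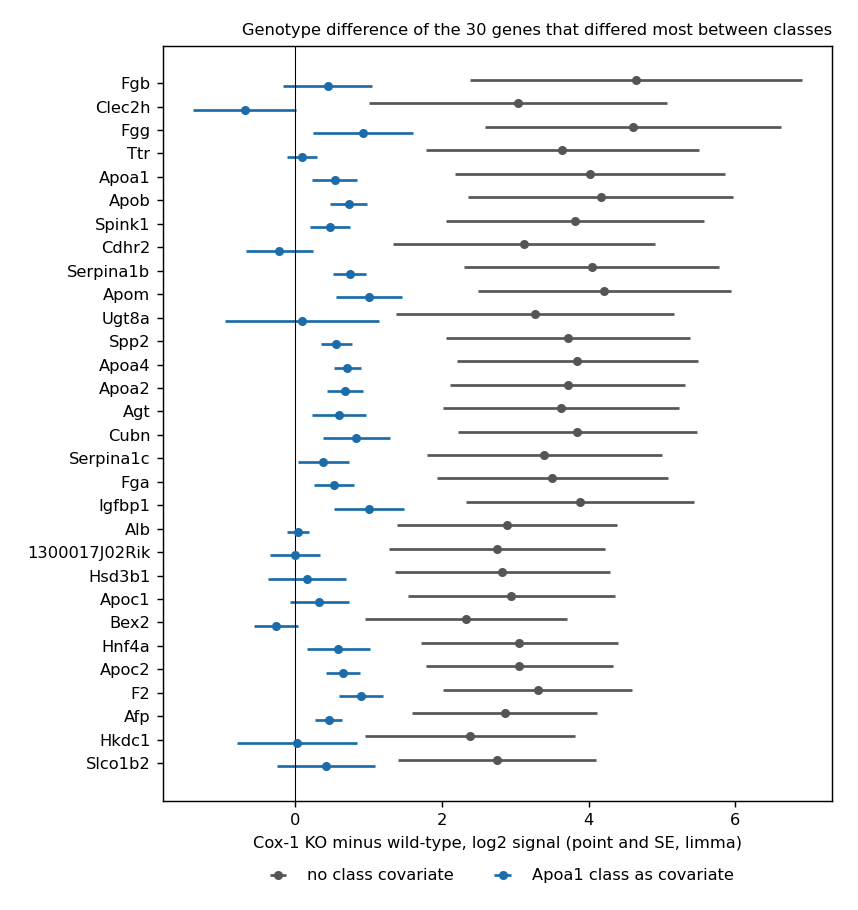
Log2 difference, Cox-1 KO minus wild-type, of the 30 genes with the largest class difference, as limma estimates with their SE, without (grey) and with (blue) the Apoa1 class as a covariate. Apoa1 is at 4.03 without and 0.53 with the covariate, and since the class was set by these signals, the smaller values and SEs follow from the choice of arrays and genes.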

How the data were processed

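The authors hybridized RNA of each uterus to its own array, computed signal with Microarray Suite (MAS5) and scaled the arrays globally. The deposited values are this linear signal intensity in whole numbers, without detection calls, and the genome build and the choice of 28000 probe sets are not given in the sources used here. Signals under 1 were set to 1, taken to log2, and kept without the 60 controls when at least 4 arrays had 100 or more, which left 26444. A single gene symbol was given for 23579 probe sets, several for 653 and none for 3768. Each gene was represented by its kept probe set of highest mean signal. High minus low was a least-squares difference with genotype as covariate, and a probe set counted as higher or lower at 1 or more on the log2 scale with the classes apart. Cox-1 KO minus wild-type was tested with limma 3.58.1 (R 4.3.3, trend on mean signal, Benjamini-Hochberg over all kept probe sets), with the methods' t-test as an alternative. Both steps were tested on simulated data. Named genes were the markers, up to 30 largest differences each way among genes that met the rule (30 higher, 4 lower), list members that met it, defining markers and Ptgs1, and others are said to be named after their values were seen. Members and lists (34) were chosen with earlier results of these data known. Motifs were searched in RefSeq promoter windows with Python 3.11.15. The number of arrays, 4 a genotype, limits the precision. Alternatives covered the value scale, filter, normalization, threshold, covariates, classing gene, variance model, replicate block and each array left out.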

Additional observations from a re-analysis of the deposited data

Results flagged for a closer look

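Within each genotype 76 groups of 4 arrays were checked for a single array far from the other 3, by Dixon's ratio of the gap to the whole range, with chance giving about 1 in 20. Most of the arrays found are those that the Apoa1 classes single out, so these values follow from the choice. In wild-type mice replicate 4 stood apart for Ttr (ratio 0.878), Afp (0.857), Alb (0.949) and Apob (0.872), for the mean of the 5 markers (0.892), and for the group means of apolipoproteins (0.899), secreted plasma proteins (0.957), absorptive genes of visceral endoderm (0.937) and imprinted and oncofetal genes (0.853). In Cox-1 KO mice replicate 2 stood apart for Apoa1 (0.944), Ttr (0.964), Afp (0.978), Alb (0.926) and Apob (0.881), for the mean of the 5 markers (0.937), and for apolipoproteins (0.842) and genes of ovary and oviduct (0.830).

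Other arrays were singled out by groups that did not follow the classes. Cox-1 KO replicate 4 stood above the other 3 in erythroid genes (0.934) and proliferation genes (0.895). Wild-type replicate 1 stood below in genes of uterine epithelium and glands (0.860), and wild-type replicate 2 below in adipocyte genes (0.913).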

How the results depend on the processing

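The 311 higher probe sets became 254 to 351 under other scales, filters, normalizations and covariates, 499 at 1.5-fold, 162 at 4-fold and 306 to 361 with an array left out, and classing by Ttr or Afp gave the same arrays. The 8 lower ones became 5 with an added constant of 32, 2 with signals under 100 set to 100, 15 without the filter, 2 with the filter at 200, 18 by quantile normalization, 62 at 1.5-fold, 1 at 4-fold, 4 with a single probe set per gene and 15 to 40 with any array left out, which leaves fewer arrays to be apart. The 3 genotype calls became 10 with an added constant of 32, 12 with the floor at 100, 11 by median centring, 6 with a robust fit, 18 with array weights, 2 to 25 with an array left out, 228 by the methods' t-test unadjusted and 2 by it after adjustment. With the replicate block 3 were called, 2 of them shared with the fit without it and without Mzb1. Deviations of same-numbered arrays correlated at -0.25 to 0.22. Those of wild-type replicate 4 and Cox-1 KO replicate 2, which stand apart by class, correlated at -0.60. The class split thus enters these values, and they cannot decide whether the numbers pair the arrays. Single-gene alternatives were run for the 30 genes with the largest class difference, the 4 lower genes (high minus low only), Ptgs1 and Mzb1. Among the 30, with the class as covariate, the genotype difference turned to -0.69 for Clec2h, -0.22 for Cdhr2, -0.27 for Bex2 and -0.0077 for 1300017J02Rik, and it also turned negative for other genes named here, such as Mirg (0.36 to -0.75) and Slc2a2 (1.48 to -0.54). The cause was not tested. No high-minus-low difference of the 30 and 4 genes changed sign. Without detection calls, signals under 100 limit what can be said of the low arrays.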

Other observations

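Several listed genes of fetal cells were below the filter of 100 on 4 arrays and entered no comparison. Hbb-y, an embryonic globin, had signals of 2, 1, 5 and 6 on wild-type replicates 1 to 3 and Cox-1 KO replicate 2, and of 26, 49, 64 and 278 on wild-type replicate 4 and Cox-1 KO replicates 1, 3 and 4. Lin28a, an RNA-binding protein of early embryos, had 56, 7, 1 and 6 against 26, 275, 74 and 88. The Y-linked genes Eif2s3y, Kdm5d and Uty were highest in Cox-1 KO replicate 1, at 324, 121 and 136, while the other arrays had at most 114, 62 and 78. Zfy2, which passed the filter, had 157 there and was highest in Cox-1 KO replicate 2, at 274.

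Other gene groups differed between arrays without following the classes. Trophoblast and placental genes were lowest in wild-type replicate 1, at -0.63 on the log2 scale relative to their mean over the 8 arrays, and highest in wild-type replicate 2, at 0.93. Jchain, which joins immunoglobulin chains, had 5012, 889, 2058 and 1302 in wild-type replicates 1 to 4 and 12540, 13542, 13466 and 14475 in Cox-1 KO replicates 1 to 4, whatever their Apoa1 signal.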
